A study of Homo sapiens with 10 samples.

Results

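The 10 genes described here encode core and accessory subunits of the Polycomb repressive complexes. They were taken by symbol from a fixed list (*EZH1*, *EZH2*, *EED*, *SUZ12*, *JARID2*, *BMI1*, *RING1*, *RNF2*, *CBX2* and *CBX8*), and all 10 were found among the 59386 genes counted in each of 10 libraries. RNA had been sequenced from VCaP cells, an androgen receptor-expressing human prostate cancer cell line, to follow gene expression after loss of the chromatin remodelers *SMARCA4* and *SMARCA1*. Cells were harvested 72 h after lipid transfection with 30 pmol of an siRNA against *SMARCA4* (siRNA A or siRNA B) or against *SMARCA1* (siRNA A or siRNA C). There were 2 libraries for each siRNA and 2 control libraries. The siRNA and dose given to the controls are not named in the sources used here, and neither is a sequencing batch. All 10 libraries came from the same cell line, so they share its alleles, and the sources do not say whether the replicates of a pair were separate cultures; p-values therefore measure the spread between libraries, which may be technical.

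Polycomb proteins keep developmental genes silent through marks on histones. Polycomb repressive complex 2 (PRC2) methylates lysine 27 of histone H3 through its catalytic subunit, which is either *EZH2* or *EZH1*, held in place by *EED* and *SUZ12*, and *JARID2* helps to bring it to chromatin. Polycomb repressive complex 1 (PRC1) ubiquitinates histone H2A through *RING1* or *RNF2*, paired with a PCGF protein such as *BMI1*, and its canonical forms bind methylated H3 through a CBX protein such as *CBX2* or *CBX8*. SWI/SNF remodelers, of which *SMARCA4* is an ATPase, are known to act against Polycomb at shared targets. *SMARCA1* is the ATPase of a different family, ISWI. *EZH2* is best known in prostate cancer for its high level in advanced, dividing tumours, and *EZH1* for its use in cells that divide little.

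Promoter sequence was read for the members whose RNA differed most between the knockdowns or formed a pair with such a gene. Entries were found in RefSeq (GRCh38.p14) for 8 of the 10 genes, as 11 windows, since *EZH2*, *JARID2* and *BMI1* have 2 starts each. *CBX2* and *CBX8* had no entry. The 250 bases before the start are shown 5′ to 3′ on the strand of the gene for *EZH2* (minus strand, chr7:148884292-148884541), for its alternative *EZH1* (minus strand, chr17:42745041-42745290) and for *BMI1* (plus strand, chr10:22320849-22321098). Capitals mark the only match to a searched motif in these 3 windows, an E-box.
EZH2: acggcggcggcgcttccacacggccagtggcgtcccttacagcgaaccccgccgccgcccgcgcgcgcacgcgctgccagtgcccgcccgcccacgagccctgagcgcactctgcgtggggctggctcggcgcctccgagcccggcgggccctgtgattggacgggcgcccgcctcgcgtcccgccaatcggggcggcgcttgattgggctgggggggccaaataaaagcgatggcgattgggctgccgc
EZH1: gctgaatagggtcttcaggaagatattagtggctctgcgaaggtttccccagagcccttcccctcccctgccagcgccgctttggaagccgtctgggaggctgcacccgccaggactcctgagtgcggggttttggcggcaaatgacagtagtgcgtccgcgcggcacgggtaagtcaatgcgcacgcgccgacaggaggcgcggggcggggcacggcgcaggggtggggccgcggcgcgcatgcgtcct
BMI1: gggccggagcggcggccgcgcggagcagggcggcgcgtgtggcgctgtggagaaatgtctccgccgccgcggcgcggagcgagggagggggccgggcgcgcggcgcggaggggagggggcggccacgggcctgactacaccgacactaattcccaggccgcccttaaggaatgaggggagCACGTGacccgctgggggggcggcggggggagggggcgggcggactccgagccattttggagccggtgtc
The windows were searched on both strands for 2 forms of the E2F site (TTTCGCGC and TTTGGCGC), the E-box CACGTG and the cell cycle homology region TTTGAA. Neither E2F form was found in any of the 11 windows. These forms occur in 0.439% and 0.55% of 35116 promoter windows of the same length. At such rates none in 11 windows was likely, so the search cannot show that E2F sites are absent. The E-box stood in 1 of the 11, the *BMI1* window above, 70 bases before the start, and occurs in 6.34% of all windows. TTTGAA stood in 1 of the 11, that of *SUZ12*, and occurs in 13.3% of all windows. The motifs searched do not overlap each other, and a match describes letters, not binding.

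Both targets were depleted in the libraries labelled for them. *SMARCA4* lay between 13.3 and 25.2 CPM (counts scaled to the library total and by TMM factors) in its knockdown against 242 and 268 CPM in the controls. *SMARCA1* lay between 1.75 and 3.40 CPM in its knockdown against 32.3 and 31.5 CPM. *SMARCA1* also rose in *SMARCA4* knockdown, to between 57.4 and 83.8 CPM (log2 fold change 1.07, SE 0.18, adjusted p = 0.001), while *SMARCA4* lay between 228 and 250 CPM in *SMARCA1* knockdown and was not called (-0.11, adjusted p = 0.5). Total counts per library lay between 23898545 and 34667965, and a gene at 0 could still have a level of up to 3 counts, or 0.0865 to 0.126 CPM depending on the library. Luminal prostate markers were expressed in all libraries (summed 9867 to 11909 CPM over 11 genes). *PTPRC* and *CD3E*, which define leukocytes, had at most 1 count in any library, and the basal markers *TP63* and *KRT5* at most 3. The basal marker *KRT14* went the other way, with 3.05 and 3.57 CPM in the controls and 36.9 to 108 in the knockdowns. Of 8 leukocyte, fibroblast and endothelial markers 5 passed the count filter, among them *COL1A1* at 4.14 to 18.5 CPM. A gene was called where the adjusted p of edgeR's quasi-likelihood test, over 16899 tested genes, was below 0.05. A call is common here: by that rule 45.1% of tested genes changed with *SMARCA4* and 46.8% with *SMARCA1* depletion. One library stands apart, *SMARCA1* siRNA A replicate 1. With genes ranked into 4 equal classes by exon length, the median of its shortest class was shifted by 0.14 on the log2 scale and that of its longest by -0.20, while both shifts were within 0.08 of 0 in each of the other libraries. Values without it are given where a printed call changed, where a printed value moved by over 1.5 times, and for some other genes.

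In *SMARCA4* knockdown, 6 of the 10 Polycomb genes were called (60%), against a background of 45.1%. *EZH2*, *CBX2* and *CBX8* fell, and *JARID2*, *RING1* and *RNF2* rose. In *SMARCA1* knockdown, 4 of the 10 were called (40%), against 46.8%. *BMI1* fell, and *EED*, *JARID2* and *RING1* rose. With 10 genes, shares this near to the background are not a result about Polycomb genes as a group, and the description turns to the single genes. The median log2 fold change of the 10 was 0.06 in *SMARCA4* and 0.13 in *SMARCA1* knockdown, beside 0.0022 and -0.0035 over all tested genes. *JARID2* and *RING1* rose in both knockdowns, which were set against the same 2 control libraries. Set directly against each other, the knockdowns differed in 4 of 10 members, where 35.4% of tested genes were called. *EZH2*, *CBX2* and *CBX8* were lower and *BMI1* was higher in *SMARCA4* than in *SMARCA1* knockdown. Each siRNA alone called 4 members with *SMARCA4* siRNA A (background 33.2%), 5 with siRNA B (45%), 2 with *SMARCA1* siRNA A (34.8%) and 5 with siRNA C (45.3%). Of the rises in *SMARCA4* knockdown, *RING1* and *RNF2* were called with siRNA B alone but not with siRNA A, and *JARID2* with neither. Of those in *SMARCA1* knockdown, *EED* and *JARID2* were called with siRNA C alone but not with siRNA A, and *RING1* with each. Between the siRNAs of *SMARCA4*, 1 member was called, lower with siRNA B, where 3.17% of tested genes were called higher and 3.04% lower. Between the siRNAs of *SMARCA1*, edgeR called 0 of 10 members, where 0.0118% of tested genes were called, and 1 member, *CBX8*, had an unadjusted p under 0.05 (0.038).

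**Figure D1:**
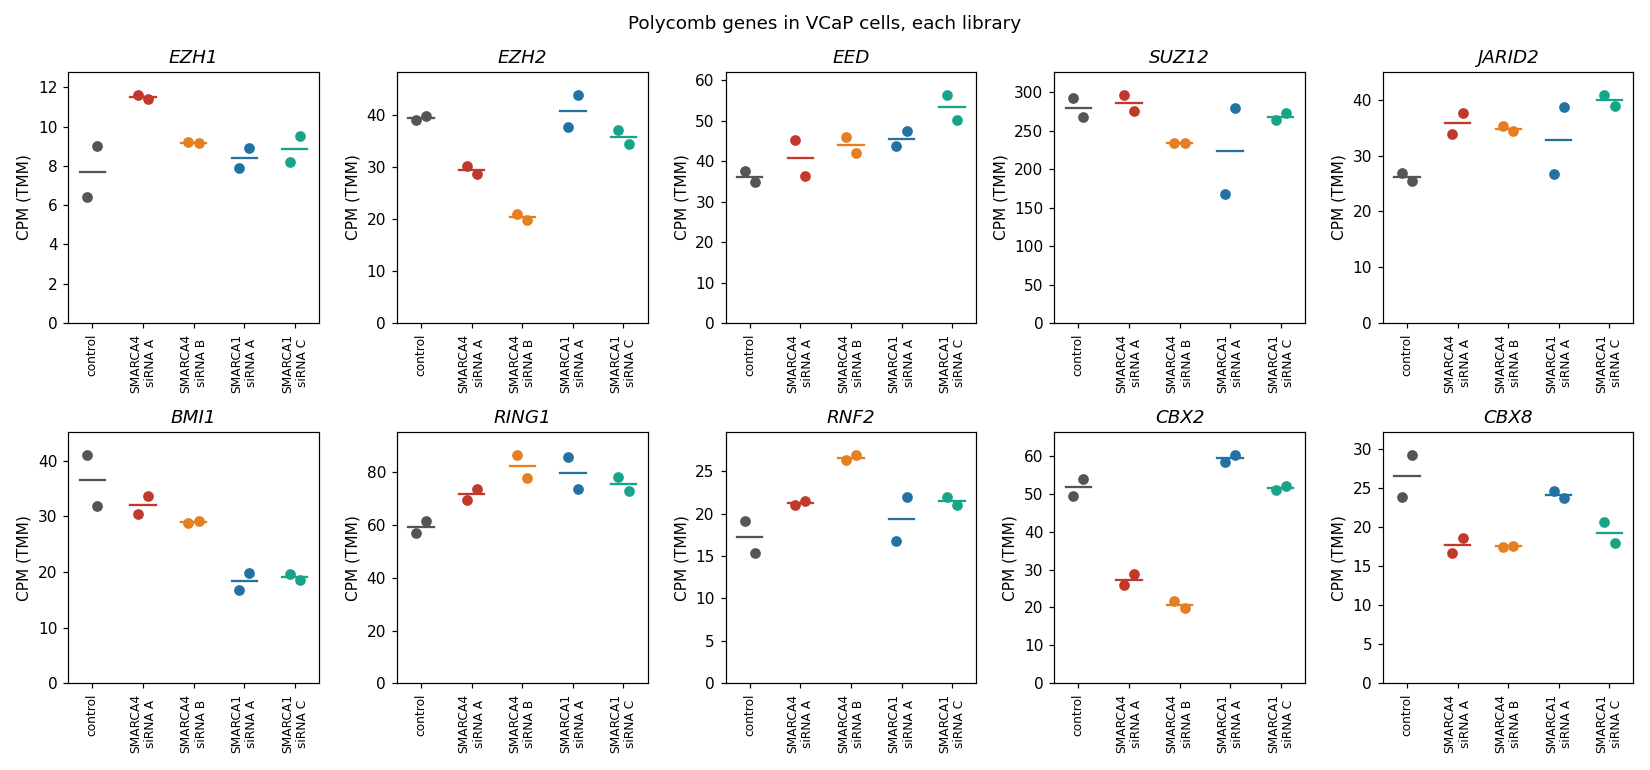
Level of each Polycomb gene in the 10 libraries, with the group on the x axis and TMM-scaled CPM from 0 on the y axis; points are libraries and bars the mean of 2. *EZH2* and *CBX2* are lower in the 4 *SMARCA4* knockdown libraries than in the other 6, and *BMI1* is lower in the 4 *SMARCA1* knockdown libraries than in the other 6.

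**Figure D2:**
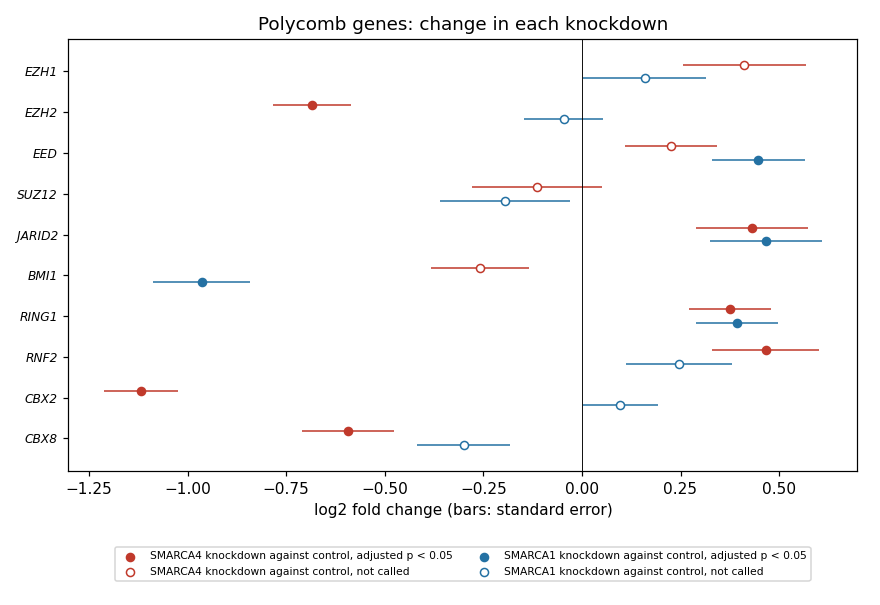
Log2 fold change (x axis) of the 10 Polycomb genes (y axis) in *SMARCA4* (red) and *SMARCA1* (blue) knockdown against control, with standard errors as bars; filled points passed adjusted p below 0.05. *CBX2* and *EZH2* lie at -1.12 and -0.68 in *SMARCA4* knockdown and near 0 in *SMARCA1* knockdown, and *BMI1* lies at -0.96 in *SMARCA1* knockdown.

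Among the catalytic subunits of PRC2, *EZH2* fell in *SMARCA4* knockdown. Its level was 39.1 and 39.8 CPM in the controls, 30.3 and 28.6 with *SMARCA4* siRNA A and 21.1 and 19.9 with siRNA B. With *SMARCA1* siRNA A it was at 37.7 and 43.95 CPM and with siRNA C at 37.2 and 34.4. The *SMARCA4* libraries were thus below all others, and the *SMARCA1* libraries overlapped the controls. It fell by 0.68 on the log2 scale in *SMARCA4* knockdown (standard error, SE, 0.10, adjusted p = 0.00042), a mean of 63.3% of the control mean. In *SMARCA1* knockdown the log2 fold change of *EZH2* was -0.05 (95% interval -0.24 to 0.15, adjusted p = 0.73). The difference between the knockdowns was -0.64 (SE 0.08, adjusted p = 0.00044). *EZH2* was the only member that differed between the 2 siRNAs of a target: it was lower with *SMARCA4* siRNA B than with A, by -0.52 (SE 0.12, adjusted p = 0.032), in a comparison where 6.2% of tested genes were called. *SMARCA4* itself was at 18.6 and 13.3 CPM with siRNA B and at 25.2 and 23.2 CPM with siRNA A. Whether the level of *EZH2* followed that of *SMARCA4* was not tested.

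*EZH1*, the alternative catalytic subunit, was the least abundant member by CPM. It was at 6.40 and 9.03 CPM in the controls, at 11.6 and 11.4 with *SMARCA4* siRNA A, at 9.21 and 9.16 with siRNA B, and 7.92 to 9.50 in *SMARCA1* knockdown. All *SMARCA4* libraries were above the controls, siRNA B only by a margin much smaller than the gap between the controls. A log2 fold change of 0.41 in *SMARCA4* knockdown missed the threshold (95% interval 0.11 to 0.72, adjusted p = 0.053). It passed with siRNA A alone (0.58, adjusted p = 0.03). For both siRNAs it passed with the replicate number as a block (adjusted p = 0.035), with DESeq-type (RLE) size factors (0.048) and with a filter of 1 CPM (0.048), and it did not with DESeq2, the other scalings, no filter or the compared libraries alone (0.051 to 0.11). Without control replicate 1 it was 0.20, and without control replicate 2 it was 0.69 and passed (adjusted p = 0.02), so the size rests on the controls. In *SMARCA1* knockdown it was 0.16 (95% interval -0.15 to 0.46).

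The 2 paralogues were also set against each other per length. *EZH2* had been called lower in *SMARCA4* than in *SMARCA1* knockdown, while *EZH1* was not called between them (0.25, adjusted p = 0.14). A share that contains *EZH2* restates its fall and is no separate result. In TPM (counts scaled by exon length, as the files list it, and by the library), *EZH1* made up 20.1% and 25.9% of *EZH1* plus *EZH2* in the controls. Its share was 37.2% and 38.1% with *SMARCA4* siRNA A and 40.3% and 41.5% with siRNA B. With *SMARCA1* siRNA A it was 24.5% and 23.9%, and with siRNA C 25.4% and 29.9%. The share was 39.3% ± 1.98 (SD, n = 4) in *SMARCA4* and 25.9% ± 2.72 (SD, n = 4) in *SMARCA1* knockdown, a difference of 13.4 percentage points without overlap (two-sided exact permutation p = 0.0286, the smallest that 4 against 4 libraries allow). Each 4 are 2 libraries for each of 2 siRNAs, taken as exchangeable, so this p counts libraries and not siRNAs. Against the 2 controls the difference was 16.2 points in *SMARCA4* knockdown, where the exact permutation p of 0.133 is the smallest possible. The level of the share depends on the length used, since the exons listed for *EZH2* span 10774 bases and its canonical transcript 2654. With canonical lengths the means were 19.4% in *SMARCA4* knockdown, 11.5% in *SMARCA1* knockdown and 10% in the controls, in the same order.

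**Figure D3:**
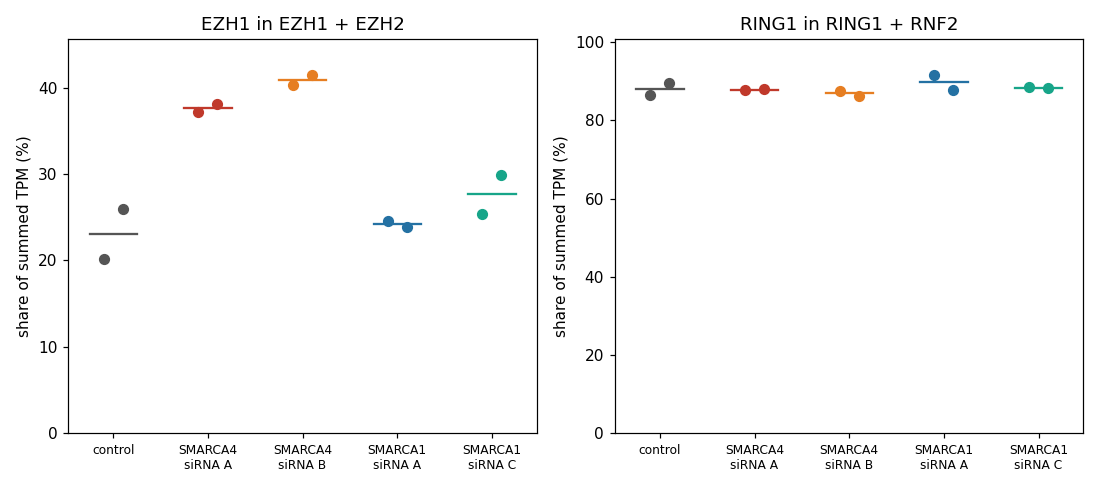
Share of summed TPM (y axis, %) of *EZH1* in *EZH1* plus *EZH2* (left) and of *RING1* in *RING1* plus *RNF2* (right), per library (points) with the mean of 2 (bars), by group (x axis). On the left the 4 *SMARCA4* knockdown libraries lie above all others (37.2% to 41.5%), and on the right all 10 libraries lie between 86.2% and 91.7%.

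The scaffold subunits of PRC2 showed smaller differences. *EED*, which reads methylated lysine 27 and stimulates the enzyme, was at 37.5 and 34.8 CPM in the controls, 36.3 to 45.9 in *SMARCA4* knockdown, and at 43.8, 47.3, 56.4 and 50.2 in *SMARCA1* knockdown. The *SMARCA1* libraries were all above the controls, and the *SMARCA4* libraries overlapped them. Its log2 fold change was 0.45 in *SMARCA1* knockdown (SE 0.12, adjusted p = 0.011) and 0.23 in *SMARCA4* knockdown (95% interval -0.0018 to 0.45, adjusted p = 0.14). The rise in *SMARCA1* knockdown was 0.40 and no longer called without control replicate 2 (adjusted p = 0.087).

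*SUZ12*, needed for the stability of PRC2, had the highest CPM of the 10 members. It was at 292 and 268 CPM in the controls, 233 to 297 in *SMARCA4* knockdown, and at 167, 279, 263 and 273 in *SMARCA1* knockdown. The value of 167 belongs to *SMARCA1* siRNA A replicate 1, and the other 9 libraries overlapped between groups. Its log2 difference from the controls was -0.11 in *SMARCA4* (95% interval -0.44 to 0.21) and -0.19 in *SMARCA1* knockdown (95% interval -0.52 to 0.13), and neither was called. Without that library it was -0.04 in *SMARCA1* knockdown. Without the other siRNA A library it was -0.40 and called (adjusted p = 0.0015). The pseudogene *SUZ12P1*, which resembles *SUZ12* and could take or give reads, had 315 to 457 counts per library and was not called in either knockdown.

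*JARID2*, an accessory subunit that helps PRC2 to its targets, rose in both knockdowns. It was at 26.9 and 25.4 CPM in the controls, at 33.9 and 37.6 with *SMARCA4* siRNA A and at 35.3 and 34.3 with siRNA B. With *SMARCA1* siRNA A it was at 26.8 and 38.8 CPM and with siRNA C at 40.9 and 38.9. Only *SMARCA1* siRNA A replicate 1 overlapped the controls. Log2 fold changes were 0.43 in *SMARCA4* (SE 0.14, adjusted p = 0.031) and 0.47 in *SMARCA1* knockdown (SE 0.14, adjusted p = 0.022), and the knockdowns differed by -0.03 (95% interval -0.26 to 0.19). Without *SMARCA1* siRNA A replicate 1 the rise in *SMARCA1* knockdown was 0.58 (adjusted p = 0.00056). Both calls were lost without control replicate 1 (adjusted p = 0.097 and 0.08) and without control replicate 2 (0.16 and 0.12). The *SMARCA4* call was also lost without siRNA A replicate 2 (adjusted p = 0.069) or either siRNA B library (0.067 and 0.053), and the *SMARCA1* call without siRNA C replicate 1 (0.053).

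Of the PRC1 members, *BMI1* (PCGF4), which activates the ubiquitin ligase of canonical PRC1, fell in *SMARCA1* knockdown. It was at 41.0 and 31.9 CPM in the controls, at 16.7 and 19.9 with *SMARCA1* siRNA A and at 19.6 and 18.5 with siRNA C. *SMARCA4* siRNA A gave 30.4 and 33.6 CPM and siRNA B 28.7 and 29.2. The *SMARCA1* libraries were below all others, including the one that stands apart. The log2 fold change of *BMI1* was -0.96 in *SMARCA1* knockdown (SE 0.12, adjusted p = 0.00026), with -0.99 for siRNA A and -0.94 for siRNA C. In *SMARCA4* knockdown it was -0.26 (approximate 95% interval -0.50 to -0.01) and was not called (adjusted p = 0.12). That interval is narrower than the test implies, so its leaving out 0 is no evidence of a fall. The knockdowns differed by 0.71 (SE 0.10, adjusted p = 0.00087). The read-through gene *COMMD3-BMI1* shares 1000 exon bases, 22.8% of those of *BMI1*, and was listed at 0 in all 10 libraries. How reads in the shared bases were assigned is not stated. The neighbour *COMMD3* was at 1.79 to 4.10 CPM and was called in neither knockdown (adjusted p = 0.17 and 0.63).

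The ligases *RING1* and *RNF2* (RING1B) are alternative catalytic subunits of PRC1. *RING1* was at 56.9 and 61.5 CPM in the controls, 69.7 to 86.6 in *SMARCA4* knockdown and 72.9 to 85.9 in *SMARCA1* knockdown. All 8 knockdown libraries were above both controls. It rose by 0.38 in *SMARCA4* (SE 0.10, adjusted p = 0.014) and by 0.39 in *SMARCA1* knockdown (SE 0.10, adjusted p = 0.011) on the log2 scale, and the knockdowns differed by -0.02 (95% interval -0.18 to 0.14). The call in *SMARCA4* knockdown was lost without control replicate 1 (adjusted p = 0.12) or 2 (adjusted p = 0.052), and that in *SMARCA1* knockdown without control replicate 1 (adjusted p = 0.11).

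*RNF2* was at 19.1 and 15.4 CPM in the controls, at 21.0 and 21.5 with *SMARCA4* siRNA A and at 26.3 and 26.9 with siRNA B. In *SMARCA1* knockdown it was between 16.8 and 22.0 CPM and overlapped the controls. The rise in *SMARCA4* knockdown was 0.47 (SE 0.14, adjusted p = 0.018), and it was 0.32 without control replicate 2 (adjusted p = 0.17). The log2 fold change in *SMARCA1* knockdown was 0.25 (95% interval -0.02 to 0.51), and without the library that stands apart it was 0.33 and passed (adjusted p = 0.03). *RING1* made up 87.4% ± 0.836 of the TPM of *RING1* plus *RNF2* in *SMARCA4* and 89.0% ± 1.77 in *SMARCA1* knockdown (SD, n = 4 each), and a two-sided exact permutation test of that difference gave p = 0.0571. That test, too, took the libraries of both siRNAs of a target as exchangeable.

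The chromodomain subunits *CBX2* and *CBX8* are neighbours on chromosome 17, at 79778148 to 79787983 on the plus strand and at 79792132 to 79801683 on the minus strand (GRCh38). *CBX2* had the largest fold change of the 10 members in *SMARCA4* knockdown. Its level was 49.5 and 53.9 CPM in the controls, 25.9 and 28.7 with *SMARCA4* siRNA A and 21.7 and 19.8 with siRNA B. *SMARCA1* siRNA A gave 58.4 and 60.2 CPM and siRNA C 51.1 and 52.1. The *SMARCA4* libraries were thus all below the other 6. On the log2 scale it fell by 1.12 (SE 0.09, adjusted p = 2e-05), with -0.92 for siRNA A and -1.32 for siRNA B. *SMARCA1* knockdown gave 0.10 (95% interval -0.09 to 0.28), and the knockdowns differed by -1.22 (SE 0.08, adjusted p = 2.6e-05).

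*CBX8* was at 23.8 and 29.2 CPM in the controls, at 16.7 and 18.6 with *SMARCA4* siRNA A and at 17.4 and 17.6 with siRNA B. *SMARCA1* siRNA A gave 24.6 and 23.7 CPM and siRNA C 20.6 and 17.9, so the *SMARCA1* libraries ran from the level of the controls down to that of *SMARCA4* knockdown. The log2 fold change of *CBX8* was -0.59 in *SMARCA4* knockdown (SE 0.12, adjusted p = 0.0024) and -0.30 in *SMARCA1* knockdown (95% interval -0.53 to -0.07, adjusted p = 0.058), the latter called without the library that stands apart (-0.32, adjusted p = 0.049). With *SMARCA1* siRNA C alone it was called (-0.46, adjusted p = 0.02), and with siRNA A it was -0.14 (adjusted p = 0.47); the siRNAs themselves were not called different (adjusted p = 0.26). Without control replicate 2 the fall in *SMARCA4* knockdown was -0.43 (adjusted p = 0.054). The difference between the knockdowns, -0.29 (adjusted p = 0.039), was lost when any of 7 of the 8 knockdown libraries was left out.

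*CBX6* and *CBX7*, also Polycomb CBX genes, were called in neither knockdown. *CBX6*, named here after its values were seen, moved in opposite directions with the 2 *SMARCA4* siRNAs. It was at 222 and 232 CPM in the controls, at 266 and 363 with siRNA A and at 122 and 116 with siRNA B (difference -1.40, SE 0.15, adjusted p = 0.003).

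The cells also differed in genes of the cell cycle and of the interferon response. All 20 genes of a proliferation list were called lower in *SMARCA4* knockdown (median log2 fold change -0.84), where 22.3% of tested genes were. In *SMARCA1* knockdown 15 of 20 were called lower (median -0.45, background 23%). Set directly against each other, 16 of 20 were lower in *SMARCA4* than in *SMARCA1* knockdown (background 19.1%). The summed level of all 20 was 3882 and 3904 CPM in the controls, 1928 to 2332 in *SMARCA4* and 2459 to 3054 in *SMARCA1* knockdown. All 20 genes of an interferon list were called higher in both knockdowns, where 22.8% and 23.8% of tested genes were. Their summed level went from 315 and 322 CPM in the controls to at least 14486 CPM in every knockdown library. *MYC* fell in both, by 2.51 in *SMARCA4* and by 0.89 in *SMARCA1* knockdown on the log2 scale. In bulk RNA, fewer cells with a transcript and less of it per cell cannot be told apart. The part of these changes in the values of the Polycomb genes was not tested.

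Genes whose pattern over the 5 groups lay nearest to that of 3 members were found among 10046 genes, by the root mean square difference of centred log2 CPM. *TOP1MT* (0.036), *TYRO3* (0.046) and *E2F3* (0.058) were nearest to *EZH2*. *CCDC85B* (0.019), *LINC02672* (0.034) and *HRH3* (0.081) were nearest to *CBX2*, and *BCL2L2* (0.033), *ATF6B* (0.034) and *PTPN12* (0.041) to *EZH1*. These describe 5 group means that share libraries.

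Of 33 further subunits and partners of PRC1 and PRC2, 32 passed the count filter. In *SMARCA4* knockdown 13 were called, 7 higher and 6 lower, and in *SMARCA1* knockdown 12, again 7 higher, and 5 lower. At 40.6% and 37.5% of those tested, both shares were below the background of 45.1% and 46.8%.

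Within PRC2, *PHF1* and *MTF2*, Polycomb-like proteins that guide PRC2 to DNA, rose in both knockdowns, while their relative *PHF19* fell in one. *PHF1* was at 16.5 and 19.8 CPM in the controls and between 31.3 and 39.3 in all 8 knockdown libraries. It rose by 0.96 in *SMARCA4* (SE 0.13, adjusted p = 0.00024) and by 0.92 in *SMARCA1* knockdown (SE 0.13, adjusted p = 0.00036) on the log2 scale. *MTF2* rose by 0.83 (adjusted p = 0.0011) and 0.79 (adjusted p = 0.0016). *PHF19* was at 76.0 and 80.3 CPM in the controls, 36.7 to 54.4 in *SMARCA4* knockdown and 57.7 to 85.0 in *SMARCA1* knockdown. It differed from the controls by -0.86 on the log2 scale in *SMARCA4* knockdown (adjusted p = 0.00012), -0.18 in *SMARCA1* knockdown (adjusted p = 0.17) and -0.68 between them (adjusted p = 0.00033). The histone-binding subunit *RBBP7* fell in *SMARCA4* knockdown (-0.46, adjusted p = 0.0014), its relative *RBBP4* fell slightly in both (-0.30 and -0.31, adjusted p = 0.036 and 0.03), and *LCOR*, whose locus encodes a PRC2 accessory protein, fell in *SMARCA1* knockdown (-0.86, adjusted p = 0.0073). In *SMARCA1* siRNA A replicate 1 *LCOR* was at 50.2 CPM, and without that library its fold change was -0.67 (adjusted p = 0.0018), while *RBBP7* then passed in *SMARCA1* knockdown too (-0.22, adjusted p = 0.02).

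Within PRC1, *PHC2*, a polyhomeotic protein that links PRC1 complexes by its SAM domain, was at 123 and 131 CPM in the controls and between 185 and 266 in the knockdowns. It rose by 0.70 in *SMARCA4* (adjusted p = 0.00078) and by 0.93 in *SMARCA1* knockdown (adjusted p = 0.00021). *RYBP* and *BCORL1*, of variant PRC1, rose in *SMARCA4* knockdown (0.46 and 0.45, adjusted p = 0.037 and 0.027). *PCGF6*, which defines a variant complex, fell in *SMARCA4* knockdown, from 14.8 and 11.7 CPM to between 7.04 and 8.10 (-0.81, adjusted p = 0.00072), as did *PCGF3* (-0.44, adjusted p = 0.013). *PCGF2* (MEL18), the closest relative of *BMI1*, was at 30.7 and 35.4 CPM in the controls and 47.8 to 54.1 in *SMARCA1* knockdown. It rose by 0.61 there (SE 0.10, adjusted p = 0.001), in the knockdown where *BMI1* fell, and by 0.29 in *SMARCA4* knockdown (adjusted p = 0.041). *AUTS2*, a partner of variant PRC1, also rose in *SMARCA1* knockdown (0.85, adjusted p = 0.0025). *SCML2* and *SCML1* fell in *SMARCA1* knockdown (-0.78 and -0.68, adjusted p = 0.0089 and 0.0017; -0.60 and -0.58 without *SMARCA1* siRNA A replicate 1, both still called), and *USP7*, a deubiquitinase that binds PRC1, fell in both (-0.52 and -0.36, adjusted p = 0.0044 and 0.027).

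**Figure D4:**
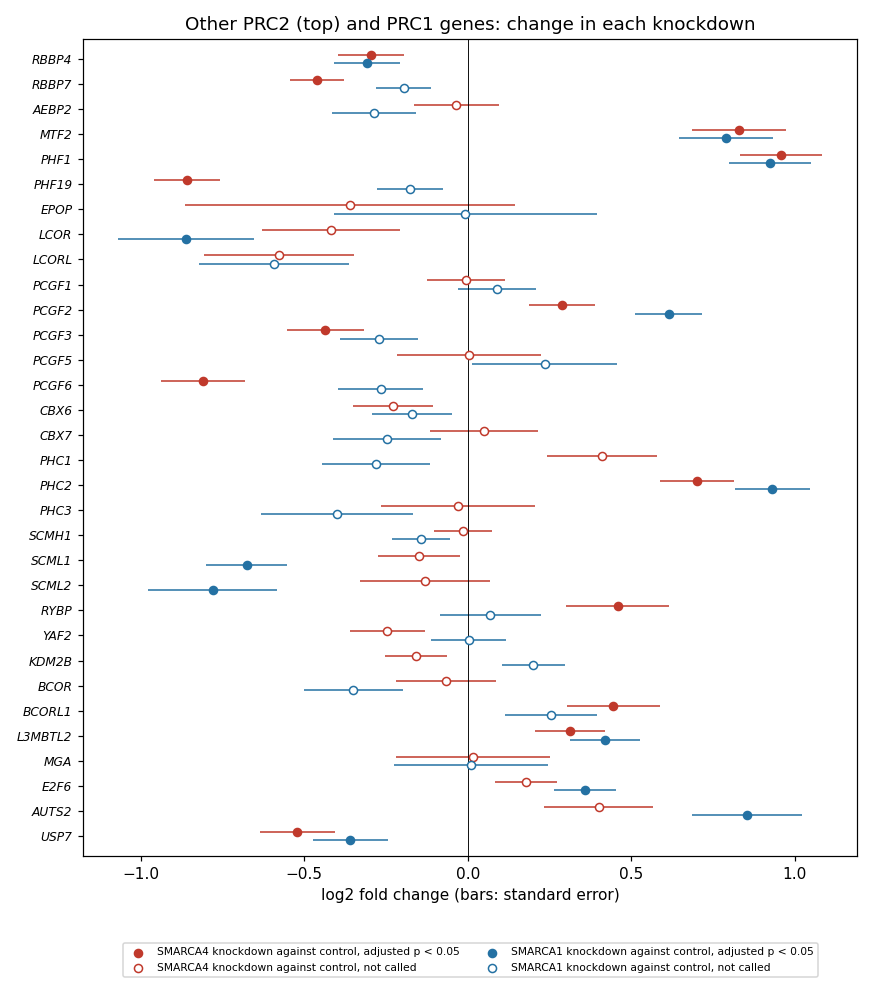
Log2 fold change (x axis) with standard error of 32 other PRC2 and PRC1 genes (y axis) in *SMARCA4* (red) and *SMARCA1* (blue) knockdown against control; filled points passed adjusted p below 0.05. *PHF1*, *MTF2* and *PHC2* lie to the right in both knockdowns, and *PHF19* and *PCGF6* lie furthest to the left in *SMARCA4* knockdown.

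Enzymes that undo the Polycomb marks were taken as a list of 10 genes with their partners, 9 of which were tested. In *SMARCA4* knockdown 4 rose and 1 fell (55.6% called, background 45.1%), and in *SMARCA1* knockdown 2 rose and 2 fell (44.4%, background 46.8%), so neither share of 9 genes stood far from the background. The lysine 27 demethylase *KDM6A* (UTX) was at 77.3 and 72.1 CPM in the controls and between 84.0 and 141 in the knockdowns, with a log2 fold change of 0.80 in *SMARCA4* (adjusted p = 0.0021) and 0.70 in *SMARCA1* knockdown (adjusted p = 0.0042). The demethylase *KDM6B* rose in *SMARCA4* knockdown (0.49, adjusted p = 0.007), and in *SMARCA1* knockdown it passed when the library that stands apart was left out (0.33, adjusted p = 0.0096). *BAP1*, which removes ubiquitin from H2A, rose in *SMARCA1* knockdown (0.26, adjusted p = 0.036). Of the partners of *BAP1*, *MBD6* rose in *SMARCA4* knockdown (0.45, adjusted p = 0.0035), *ASXL2* fell in *SMARCA1* knockdown (-0.75, adjusted p = 0.046), and *FOXK1* fell in both (-0.70 and -0.74, adjusted p = 0.0014 and 0.0011). *ASXL2* was at 16.2 CPM in *SMARCA1* siRNA A replicate 1 and 27.7 to 41.1 in the other 3 libraries, and without the former its fold change was -0.49 (adjusted p = 0.012).

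HOX genes are classical targets of Polycomb. Of 38 listed, 27 passed the filter, 4 of them with fewer than 10 counts in both controls, so some entered only through libraries where they were high, and the counts are a description. In *SMARCA4* knockdown 10 were called (37%, background 45.1%), all higher, where 22.8% of all tested genes were called higher. In *SMARCA1* knockdown 17 were called (63%, background 46.8%), 11 higher (background 23.8%) and 6 lower (background 23%). These directions were the same under the other scalings tried. With *SMARCA4* siRNA A alone 5 HOX genes were called higher and 0 lower (background 17.4% and 15.8%). With siRNA B alone 10 were called higher and 1 lower (background 23% and 21.9%). The highest rises started from levels near 0. *HOXB3* had 3 counts in each control, 32, 7, 44 and 19 in *SMARCA4* knockdown and 46, 32, 110 and 126 in *SMARCA1* knockdown. *HOXB6*, which shares 433 exon bases with *HOXB3* on the same strand, had 8 and 13 counts in the controls, 61, 18, 93 and 25 in *SMARCA4* and 114, 77, 160 and 176 in *SMARCA1* knockdown. *HOXB7* went from 0.920 and 0.966 CPM in the controls to 2.40 to 4.23 in *SMARCA1* knockdown (log2 fold change 1.93, adjusted p = 0.00058).

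In *SMARCA4* knockdown, *HOXD4* and *HOXD3* were also among the largest rises. *HOXD4* had 3 and 6 counts in the controls and 18 to 34 in *SMARCA4* knockdown, and *HOXD3* had 6 and 8 against 21 to 50. *HOXA13*, which was abundant in these cells, fell in *SMARCA1* knockdown, from 134 and 121 CPM to 60.3, 93.6, 58.6 and 59.8 (-0.92, adjusted p = 0.0042). In *SMARCA4* knockdown it was between 106 and 183 CPM and was not called (0.16, adjusted p = 0.56), and the knockdowns differed by 1.08 (adjusted p = 0.0012). *HOXA6* (-0.78, adjusted p = 0.014) and the very low *HOXA2* (12 and 10 counts in the controls, 3 to 5 in *SMARCA1* knockdown) fell as well, the latter not called without *SMARCA1* siRNA A replicate 1 (adjusted p = 0.059).

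**Figure D5:**
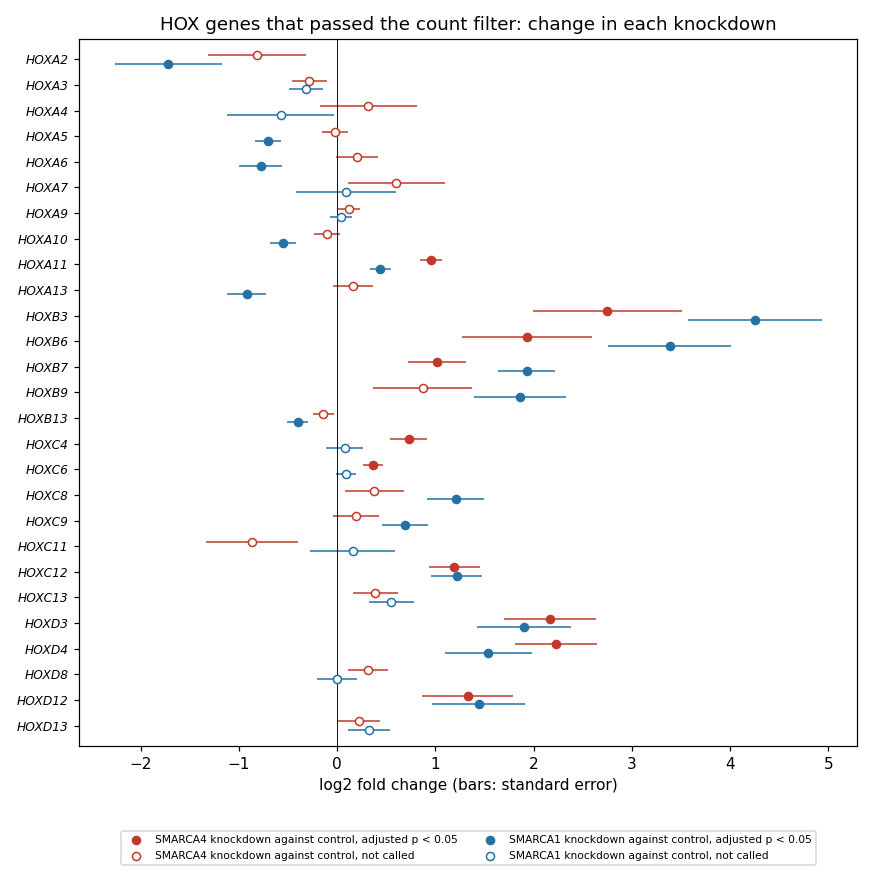
Log2 fold change (x axis) with standard error of the 27 HOX genes that passed the count filter (y axis) in *SMARCA4* (red) and *SMARCA1* (blue) knockdown against control; filled points passed adjusted p below 0.05. The 10 filled red points all lie to the right of 0, and the filled blue points lie on both sides, with 11 to the right and 6 to the left.

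A further list held 39 developmental regulators known as Polycomb targets in stem cells. Of these, 23 passed the filter, 7 with fewer than 10 counts in both controls, among them *PAX2*, *BMP2* and *EOMES*. Such genes could enter only through libraries where they were high, so the counts and directions are a description. In *SMARCA4* knockdown 10 were called, all higher (43.5%, where 45.1% of tested genes were called and 22.8% called higher). In *SMARCA1* knockdown 11 were, all higher (47.8%, where 46.8% were called and 23.8% called higher). With no filter on counts 1 was called lower in each knockdown, as was 1 in *SMARCA4* knockdown without siRNA A replicate 2. *CDKN2B*, a cyclin-dependent kinase inhibitor, was at 3.10 and 2.12 CPM in the controls and between 6.92 and 9.40 in the 8 knockdown libraries. Its log2 fold change was 1.62 in *SMARCA4* (SE 0.20, adjusted p = 0.00015) and 1.71 in *SMARCA1* knockdown (SE 0.20, adjusted p = 0.00016). *PAX2*, a regulator of kidney development, had 6 and 7 counts in the controls and 22 to 66 in the knockdowns. *BMP2*, a secreted signal, had 9 and 6 counts in the controls and 14 to 50 in *SMARCA4* knockdown. *GATA3*, an epithelial transcription factor, was at 0.544 and 0.483 CPM in the controls and 3.36 to 3.74 in *SMARCA1* knockdown (2.77, adjusted p = 8.7e-05). In *SMARCA4* knockdown it was between 0.503 and 1.05 CPM (0.46, adjusted p = 0.27), and the knockdowns differed by -2.31 (adjusted p = 7.7e-05). *EOMES* had 0 and 1 counts in the controls and 5 to 19 in *SMARCA1* knockdown.

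Of 7 genes described as repressed by *EZH2* in prostate cancer, 3 passed the filter. The other 4 had at most 10 counts in any library and overlapped the controls in both knockdowns. All 3 tested genes were called higher in both knockdowns, where 22.8% and 23.8% of tested genes were. These calls describe 3 genes and not the list. With *SMARCA4* siRNA A alone 1 of the 3 was called and with siRNA B all 3, and all 3 were higher with siRNA B than with A. *DAB2IP*, a tumour suppressor that restrains RAS, was at 54.4 and 61.1 CPM in the controls, between 89.4 and 149 in *SMARCA4* and 122 to 154 in *SMARCA1* knockdown (log2 fold change 1.07 and 1.27, adjusted p = 6.7e-05 and 4.5e-05). *CDH1* (E-cadherin) rose by 0.63 (adjusted p = 0.0034) and 0.36 (adjusted p = 0.047). *TIMP2*, an inhibitor of metalloproteinases, rose in *SMARCA1* knockdown (0.92, adjusted p = 0.0005). With *SMARCA4* siRNA A it was at 19.5 and 14.1 CPM and with siRNA B at 46.0 and 46.4, against 17.3 and 16.7 in the controls.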

How the data were processed

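RNA-seq was analysed from 10 VCaP libraries, grouped by the sample labels. Strand-specific libraries had been made after poly(A) selection, and the authors aligned the reads to GRCh38 with HISAT2 (2.1.0) and counted them per gene with featureCounts (1.5.2) on GENCODE annotations; versions come from the submitters' processing notes. What the authors deposited are raw counts per gene, not normalized. The strand setting of the counting was not stated. At least 10 counts over the 10 libraries were found for 27.5% of 753 genes nested in opposite-strand exons and for 0.642% of 1090 nested in same-strand exons.

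From these counts, edgeR 4.0.16 (R 4.3.3) fitted its quasi-likelihood model with TMM factors to all libraries as 5 groups, after filterByExpr (minimum count 10, minimum total 15) left 16899 genes. The 2 siRNA groups of a target were averaged with equal weight. P-values were adjusted by Benjamini-Hochberg over all tested genes. Standard errors were derived from the log2 fold change and its F statistic, and 95% intervals are 1.96 standard errors. This normal multiple ignores the few degrees of freedom of the test, so the intervals are approximate and too narrow. Paralogue shares were compared by exact permutation of libraries. The model was tested on simulated data.

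The members and gene lists were chosen with earlier results of these data known. Besides the members, SMARCA4, SMARCA1 and MYC, the genes named are, per list and knockdown, up to 3 of the largest rises and falls that were called and moved the same way with both siRNAs, the 3 nearest patterns (mean of at least 1 CPM, span of at least 0.5 log2), and genes that can share reads with a member. Some genes of the lists, and a share computed with one of them, are not reported here. CBX6, CBX7 and the marker genes were named outside this rule. The alternatives were DESeq2 1.42.0, other scalings and filters, the replicate number as a block, the compared libraries alone, each library left out, and, chosen after seeing the data, canonical transcript lengths.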

Additional observations from a re-analysis of the deposited data

Results flagged for a closer look

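In a test for outlying libraries within groups of 4 (Dixon's criterion at the 95% level), 3 of 24 groups were marked, where chance marks about 1 in 20. All 3 concern SMARCA1 siRNA A replicate 1, which had 167 CPM of SUZ12, 26.8 CPM of JARID2 and a RING1 share of 91.7% in RING1 plus RNF2. The other 3 SMARCA1 knockdown libraries had 263 to 279 CPM of SUZ12, 38.8 to 40.9 CPM of JARID2 and shares of 87.8% to 88.5%. It is the library whose short and long genes were shifted.

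Of the members, 4 responded differently to the knockdowns in the direct test, with log2 differences (SMARCA4 minus SMARCA1 knockdown) of -0.64 for EZH2, 0.71 for BMI1, -1.22 for CBX2 and -0.29 for CBX8. EZH2 also differed between the SMARCA4 siRNAs, by -0.52 (siRNA B minus siRNA A).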

How the results depend on the processing

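The falls of EZH2 and CBX2 in SMARCA4 knockdown, of BMI1 in SMARCA1 knockdown, and the differences of these 3 genes between the knockdowns were called in the main test and under every alternative tried, each left-out library included. With a library left out in turn, the number of members called ran from 3 to 6 in SMARCA4 knockdown, 2 to 6 in SMARCA1 knockdown and 3 to 6 between them. For the other Polycomb genes it ran from 6 to 10, 6 to 20 and 5 to 19; for HOX genes from 4 to 10, 8 to 18 and 9 to 14; and for developmental regulators from 8 to 10, 7 to 13 and 5 to 9. The lowest members' counts came without control replicate 2 (SMARCA4 knockdown) and without either control (SMARCA1 knockdown), and the highest counts of other Polycomb genes, 20 and 19, without SMARCA1 siRNA A replicate 2. Fitting only the compared libraries gave 5 HOX genes in SMARCA4 knockdown, 8 HOX genes and 5 other Polycomb genes between the knockdowns; fewer libraries enter that fit. The difference in share between the knockdowns stayed between 12.6 and 14.7 points for EZH1 and -2.04 and -0.765 for RING1, where 3 against 4 libraries cannot go below an exact permutation p of 0.0571.

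Signs turned for members whose difference had not been called. RING1 between the knockdowns was 0.0064 with library totals, 0.0023 with no filter and -0.0703 to 0.0505 with a library left out. With a library left out, JARID2 between the knockdowns ran from -0.1457 to 0.1109 and SUZ12 from -0.0711 to 0.2887 (called there, without SMARCA1 siRNA A replicate 2), and in SMARCA1 knockdown EZH1 ran from -0.0593 to 0.4344 and EZH2 from -0.1037 to 0.0031. The cause was not tested. The difference of CBX8 between the knockdowns was not called by DESeq2 (adjusted p = 0.051), with library totals (0.063), with no filter (0.098) or with the compared libraries alone (0.12), and in that last fit the rises of RNF2 in SMARCA4 and of JARID2 in SMARCA1 knockdown had an adjusted p of 0.051. The labels tie the replicate numbers to no shared culture or day. Deviations of same-numbered replicates correlated from -0.103 to 0.362 over 10 pairs of groups, above 0.1 in 3 (the SMARCA4 siRNAs with each other, and each with SMARCA1 siRNA A) and never with the controls, so the numbers were not taken to pair the samples; with the replicate block, 7 members were called in SMARCA4 knockdown (EZH1 added, adjusted p = 0.035), 4 in SMARCA1 knockdown and 4 between them, and no other call of a member changed. With RLE size factors and with the filter of 1 CPM, 7 were called in SMARCA4 knockdown, again with EZH1. Other scalings moved the median of all genes by at most 0.035.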

Other observations

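The HOX genes were also counted by cluster, a split chosen after their values were seen. Of all tested genes, 22.8% were called higher and 22.3% lower in SMARCA4 knockdown, and 23.8% and 23% in SMARCA1 knockdown. Between the knockdowns 16.3% were called higher and 19.1% lower in SMARCA4 knockdown. In SMARCA1 knockdown, 5 of the 10 tested HOXA genes fell (HOXA2, HOXA5, HOXA6, HOXA10 and HOXA13) and 1 rose (HOXA11). Of the 5 tested HOXB genes 4 rose (HOXB3, HOXB6, HOXB7 and HOXB9) and 1 fell, HOXB13, a prostate lineage factor. In SMARCA4 knockdown, no HOX gene of either cluster was called lower, and 1 HOXA and 3 HOXB genes rose. Between the knockdowns, 5 HOXA genes were higher in SMARCA4 knockdown and 0 lower, and 1 HOXB gene was higher and 4 were lower. The 3 called HOXD genes (HOXD3, HOXD4 and HOXD12) rose in both knockdowns, and 0 HOXD genes were called between them. These 3 and HOXB3 had fewer than 10 counts in both controls. They passed the filter only through libraries where they were high, so their rises are a description and not a result about the clusters. Without SMARCA1 siRNA A replicate 1, the calls of HOXA2, HOXC9 and HOXD12 in SMARCA1 knockdown and of HOXB9 between the knockdowns were lost. Their log2 fold changes were then -1.525, 0.49, 1.29 and -0.64. HOXD4, not called between the knockdowns at 0.69, was then at 0.91 and passed.

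Neuroendocrine markers were mixed. Of 5 tested, 2 rose and 1 fell in each knockdown (60% called, where 45.1% and 46.8% of all tested genes were). Of 11 luminal markers, 5 rose and 1 fell in SMARCA4 knockdown, and 2 rose and 4 fell in SMARCA1 knockdown. That is 54.5% called in each, near the same backgrounds, so the counts are a description. KRT14 rose from 3.05 and 3.57 CPM in the controls to between 36.9 and 108 CPM in the 8 knockdown libraries, while the other basal markers TP63 and KRT5 had at most 3 counts. Of 8 leukocyte, fibroblast and endothelial markers 5 were tested. Of these 1 rose in SMARCA4 knockdown (20% called, background 45.1%), and 1 rose and 1 fell in SMARCA1 knockdown (40%, background 46.8%).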
